A study of Mus musculus with 2 samples.

Results

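Smooth muscle cells of the neonatal mouse heart were followed between postnatal day (P) 1 and P7, the ages at which the study compared intact hearts. The study describes a mouse heart that can regenerate in its first week of life but not later. Cells were selected on detected UMIs (unique molecular identifiers, each standing for 1 captured RNA molecule) of 2 sets of 5 genes. A member had at least 3 of Myh11, Mustn1, Actg2, Olfr558 and Nrip2, more of these than of the pericyte genes Kcnj8, Colec11, Vtn, Higd1b and Steap4, and no UMI of Pecam1 or Ptprc, which mark endothelial cells and leukocytes. Of 13502 cells kept, 480 were members, with 131 of 4991 at P1 and 349 of 8511 at P7. Each age was 1 library made from 3 pooled hearts of the same litter, from intact mice whose strain is not given in the labels, with no transgene or treatment stated. Tissue was digested for 20 min at P1 and 45 min at P7, and live cells were then sorted on a viability stain. The P1 library held Xist and no UMI of Ddx3y, Eif2s3y, Kdm5d or Uty in members, and the P7 library the converse, so that age, sex of the pooled hearts, litter and digestion time cannot be told apart. With 1 library per age there is no replicate and no test. Levels are given as CPM (a gene's share of all UMIs summed over members, on the usual CPM scale), ratios as the log2 of P7 over P1 with 0.5 counts added, and brackets hold 95% intervals that cover counting error only and not the spread between hearts.

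Vascular smooth muscle cells wrap arteries in layers and set their calibre by contracting. Their contraction rests on smooth muscle actin and myosin, is triggered by calcium entry and release, and is switched on at the gene level by serum response factor with its partner myocardin. During maturation the cells also lay down elastin and basement membrane, and coronary smooth muscle is known to arise largely from the epicardium, partly through pericytes.

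Members had a median of 11674 UMIs at P1 and 10330 at P7, and summed to 1664211 and 3977136 UMIs. The median share of mitochondrial UMIs was 3.93% at P1 and 4.86% at P7. Of the 2 files' barcodes 18 were shared, none of them between members. The gate took 2.62% of P1 cells (exact binomial interval 2.20 to 3.11) and 4.10% of P7 cells (3.69 to 4.54), and the length of digestion cannot be told apart from age in these shares. The pericyte gate, built as the mirror image of the rule, took 2.58% and 3.69%.

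Acta2 and Tagln, smooth muscle genes that the rule did not use, were present in nearly all members. Acta2, smooth muscle actin, was present in 99.2% of P1 members and 99.7% of P7 members, against 23.1% and 30.9% of Ptprc-positive cells, which should lack it and had median depths of 7202 and 7034 UMIs. With every cell drawn down to 2000 UMIs (5 P1 and 9 P7 members were shallower and fell out), Acta2 was found in 99.2% and 99.1% of members and in 9.80% and 13.4% of Ptprc-positive cells. Acta2 was also present in 51.2% and 73.6% of pericyte gate cells, and in 34.45% and 49.68% after thinning. Tagln, an actin-binding protein of smooth muscle, was present in 99.2% and 98.6% of members. It was present in 34.1% and 32.8% of pericyte gate cells and in 12.4% and 20.5% of Ptprc-positive cells. No gene in the rule marks the coronary vessels, and the vessel each cell came from is not given. Of the members 83 at P1 and 262 at P7 had all 5 smooth muscle genes, 14 and 64 had 4, and 34 and 23 had only 3. The members just inside the threshold held Acta2 at 7717 CPM at P1 and 7832 CPM at P7. The 54 P1 cells just outside it, with 2 of the genes, held 6485 CPM of Acta2, and the 62 P7 cells just outside held 636 CPM. Dcn, a proteoglycan gene of fibroblasts, stood at 1446 CPM inside and 2654 CPM outside at P1, and at 4352 CPM inside and 12351 CPM outside at P7. At P1 the cells on either side of the threshold thus held similar levels of Acta2, and at P7 they did not.

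Markers of other cells were measured in the same members. All 10 endothelial markers had UMIs, with a summed level of 946 CPM at P1 and 862 CPM at P7, led by the fatty acid carrier Fabp4, whereas the defining genes Cdh5 and Kdr had 11 and 8 UMIs at P1 and 35 and 25 at P7. Fibroblast markers summed to 2432 and 3008 CPM, with 12 of 13 genes detected at each age; Gsn led at P1 and Dcn at P7. Of the 10 fibroblast markers with at least 100 UMIs 8 had a log2 ratio of P7 over P1 above 0, against 2912 of all 6473 genes with as many UMIs (45%). At least 2-fold higher were 4 of the 10, Pi16, Clec3b, Dpt and Medag, against 83 of all these genes (1.28%). The median of the 10 was 0.58 in members against 1.23 in the pericyte gate and 1.07 in all other cells. Pericyte markers, among them the 5 genes of the rule, summed to 4882 and 6030 CPM with all 14 detected, led by Rgs5, which arterial smooth muscle also expresses. Leukocyte markers reached 35.5 and 16.8 CPM, with 10 and 12 of 12 genes detected and S100a8 and Lyz2 in the lead, and epicardial markers 4.21 and 1.76 CPM, with Upk3b, Upk1b, Krt8 and Bnc1 at 0 at both ages. Cardiomyocyte markers summed to 919 and 889 CPM with all 14 detected, led by Tnnt2 at P1 and Pln at P7. The list of lung and posterior markers summed to 730 and 421 CPM, with Nkx2-1 at 0. Aspn alone held 910 of its 1215 UMIs at P1 and 1461 of 1674 at P7. In the fibroblast gate at P7 Aspn held 55092 of 55640, so these sums mostly show Aspn and do not measure lung RNA. Erythroid markers summed to 7.21 and 41.0 CPM, with Hbb-bs at 6 UMIs in P1 members and 85 in P7 members while Hbb-y and Alas2 were at 0. The part that RNA of other cells plays in the values below was not tested.

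Members fell into 6 groups when their variable genes were clustered together over both ages. The groups are described by the genes that led each of them over the other members. The clustering itself left out the genes of the rule, Xist, the Y-linked genes and mitochondrial transcripts. Vtn, Higd1b, mt-Nd4 and mt-Nd2, named below, thus lead a group without having formed it. Group sizes are not compared between ages because the genes that formed the groups differ with age. Group 1 (46 P1 and 92 P7 cells) was led by Ankrd37, Rbm24, Rasd1 and Tnnt2. Group 2 (15 and 80 cells) was led by the pericyte genes Vtn, Higd1b and Abcc9 with Fabp7. Group 3 (8 and 83 cells) was led by the sarcomeric actin Acta1, Cpxm2, Itih4 and the muscle glycolytic enzyme Pgam2 over both ages together, although its 8 P1 cells had only 1 UMI of Itih4 and 2 of Cpxm2. It held Acta2 at 34282 CPM at P1 and 36901 CPM at P7, above each of the other groups. Group 5 (14 and 43 cells) was led by cell cycle genes such as Ccnb1, Ube2c and Aurkb, with Mki67 in 4 of its P1 and 21 of its P7 cells and the replication gene Mcm5 in 11 and 32. Group 6 (11 and 19 cells) was led by Malat1, followed by Cspg4, Plce1, Notch3 and Pdgfrb, with the mitochondrial transcripts mt-Nd4 and mt-Nd2 after these. It was shallow, with a median of 2974 UMIs.

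Group 4 stood apart from the other members. Over its 37 P1 and 32 P7 cells together the leading genes were Hhip, Tgfbi, Sost, Sema3c and Timp4. These came from a minority of its cells: Tgfbi was found in 14 P1 and 4 P7 cells, Sema3c in 15 and 14, and Timp4 and Sost in 10 and 9 P1 cells and no P7 cell. Prdm6, a leading gene further down, was found in 27 of its P1 cells and 1 of its P7 cells. Of the 69 cells 38 had only 3 of the 5 smooth muscle genes. Acta2 stood at 7870 CPM in its P1 cells and 8946 CPM in its P7 cells. Dcn stood at 2246 and 6689 CPM, against 55.3 and 79.8 CPM in group 1. All 84 P1 UMIs of Hhip, a hedgehog-binding protein of lung mesenchyme, came from 7 cells of this group. All 10 P1 UMIs of the lung regulator Tbx4 and all 18 of Hoxb5 also lay in it, in 8 and 12 cells, and no P7 member had Hhip or Tbx4. At P7 the group held 117 of the 124 UMIs of Pi16, a gene of adventitial fibroblasts, which no P1 member had. Group 4 therefore held cells that carry smooth muscle genes together with fibroblast genes at both ages and lung or posterior genes at P1. Values without group 4, an alternative chosen after its genes were seen, are given below for the genes and lists named with them.

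**Figure D1:**
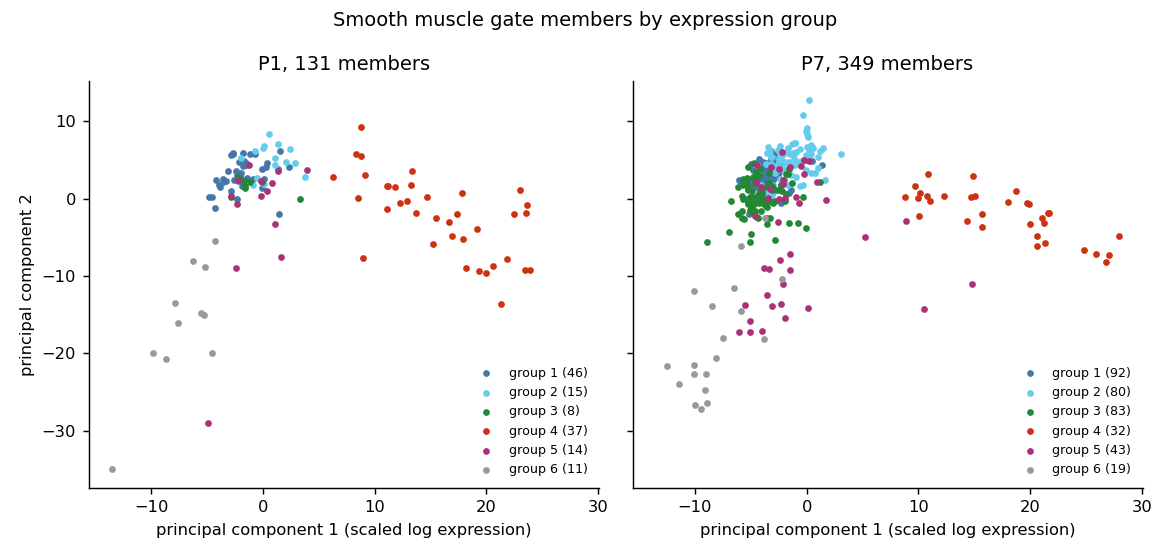
Members of the smooth muscle gate on the first 2 principal components of their scaled log expression, P1 on the left and P7 on the right, each point 1 cell coloured by group with the number of cells in brackets. The 37 P1 and 32 P7 cells of group 4 lie to the right along component 1 at both ages, where a few P7 cells of group 5 join them, and the shallow cells of group 6 lie to the lower left.

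Few genes differed by 2-fold or more between P1 and P7 members. Of 6473 genes with at least 100 UMIs over both ages, 83 (1.28%) were at least 2-fold higher at P7 and 99 (1.53%) at least 2-fold lower, and the median log2 ratio was -0.04. Without group 4 the numbers were 93 and 58 of 5609 genes. Counts for gene lists below are to be read against these shares.

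**Figure D2:**
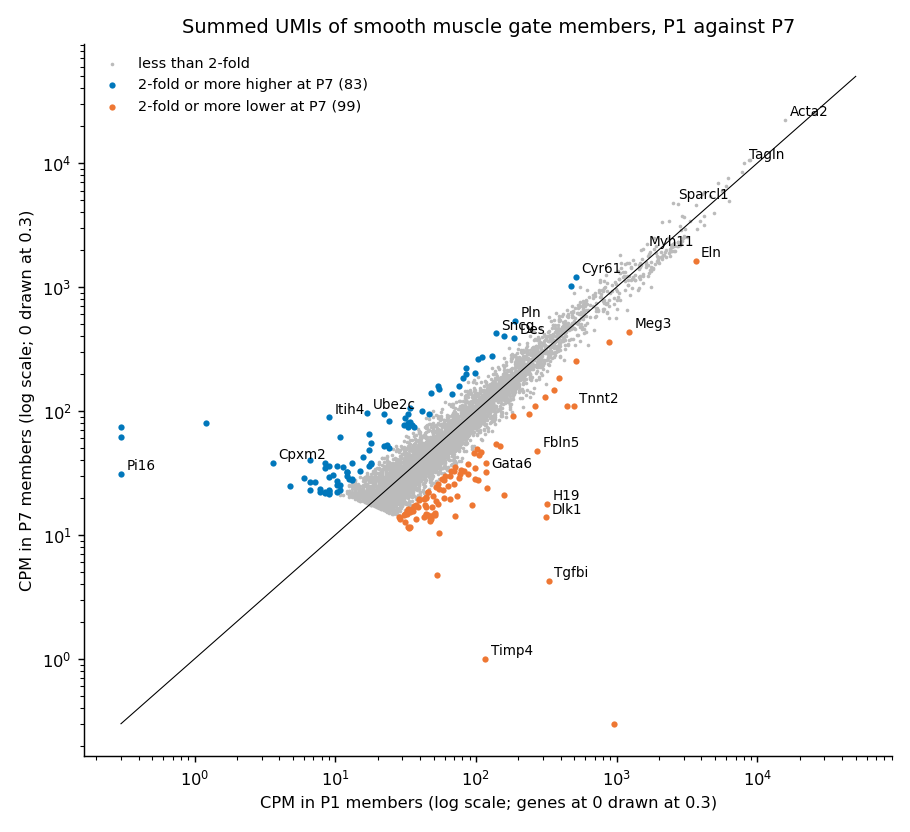
Level of each of 6473 genes in P1 members (x axis) and P7 members (y axis), in CPM on log scales, with genes at 0 drawn at 0.3 and the line of equal levels. Coloured points are the 83 genes at least 2-fold higher and the 99 at least 2-fold lower at P7. The points without a name far from the line are the Y-linked genes Ddx3y and Eif2s3y at the left edge, Gm10320 beside them and Xist at the lower right, and Acta2 and Tagln lie at the upper end just above the line.

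Contractile genes were on balance higher in P7 members. The list of the contractile apparatus also holds cytoskeletal genes. Of its 50 measured genes 32 (64%) had a ratio above 0, against 2912 of all 6473 genes (45%). Of the 50, 4 were at least 2-fold higher and 0 at least 2-fold lower. The median was 0.23, against 0.11 in the pericyte gate and 0.06 in all other cells. Acta2 (chr19:34241090-34255590, minus strand, GRCm38) stood at 15667 CPM at P1 and 22315 CPM at P7, a log2 ratio of 0.51 (0.49 to 0.53). Over single members its quartiles ran from 7881 to 20884 CPM at P1 and from 13034 to 29853 CPM at P7, so the ages overlapped widely from cell to cell. Tagln stood at 7975 and 10071 CPM, a ratio of 0.34 (0.31 to 0.37). The fibroblast markers, with a median of 0.58, moved with the contractile list, and their part in its ratios was not tested. Myh11, the smooth muscle myosin heavy chain, was used by the rule and is given as a description, at 1541 CPM at P1 and 2016 CPM at P7. Actg2, the enteric type of smooth muscle actin and also part of the rule, stood at 882 and 781 CPM.

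The 4 genes of the contractile list past 2-fold were Sncg, Synm, Pcp4l1 and Des, none of which encodes an actin or a myosin. Sncg, gamma-synuclein, which smooth muscle is known to express, stood at 139 CPM at P1 and 422 CPM at P7, a log2 ratio of 1.60 (1.40 to 1.81), and was found in 38.2% and 58.2% of members. Synm and Des encode the intermediate filament proteins synemin and desmin. Des stood at 188 and 391 CPM, a ratio of 1.06 (0.88 to 1.24), and Synm, with 29 and 192 UMIs, had a ratio of 1.45 (0.90 to 2.09). Pcp4l1 stood at 157 and 400 CPM, a ratio of 1.34 (1.15 to 1.54); its ratio in the pericyte gate was 1.40 (0.52 to 2.52). Smtn, the cytoskeletal protein smoothelin of contractile cells, stood just below the threshold at 96.1 and 176 CPM (0.87), and was past it without group 4 (1.17, 0.86 to 1.5). Cnn1, calponin, stood at 269 and 333 CPM (0.31, 0.15 to 0.47). It was found in 63.4% of P1 and 54.7% of P7 members, and in 23.0% and 34.7% after thinning. Inside groups 1 to 4 its ratio was -0.23, -0.67, -0.10 and -1.24, with an interval below 0 in group 4, and in group 5 it was 1.90 (1.24 to 2.72). Against this direction, Lmod1, a smooth muscle leiomodin, stood at 427 and 340 CPM (-0.33).

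The ratios of the contractile genes differed from group to group of members. Acta2 stood at 21871 CPM at P1 and 22074 CPM at P7 in group 1, a ratio of 0.01, and the ratio was 0.51 in group 2, 0.11 in group 3, 0.18 in group 4, 0.58 in group 5 and -0.33 in group 6. Tagln was lower at P7 in group 1 (-0.10, -0.15 to -0.05) and group 4 (-0.34, -0.41 to -0.27), and higher in groups 2, 3 and 5 (0.53, 0.12 and 0.73). The median of the contractile list was -0.10 in group 1, 0.09 in group 2, 0.04 in group 3, -0.02 in group 4 and 0.31 in group 5, over genes with at least 50 UMIs in the group, and 0.12 over groups 1, 2 and 3 together. Without group 4 Acta2 had a ratio of 0.35 and the list a median of 0.19. Des, Sncg and Pln were higher at P7 in each of groups 1, 2 and 3, with Sncg at 0.76, 1.62 and 1.46. Des had a ratio of -0.60 (-1.02 to -0.19) in group 4. In group 6, with few UMIs, Pln had a ratio of -0.85 (-2.43 to 0.69) and Sncg one of -0.33 (-2.84 to 2.50). The part that the mix of groups caught at each age plays in the pooled ratios was not tested.

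Contractile genes are known targets of serum response factor, which binds the CArG box. The box in its strict form was searched for in RefSeq promoter windows of GRCm38.p6, from 250 bases before to 50 after a start site. Its pattern is the same on both strands, so both were covered. It was found for 8 of the 44 genes of the contractile list with a window (18.2%) and for 488 of 27025 genes in all (1.81%). The list holds 51 genes, and Tagln was among those without a window. The windows of Acta2, Cnn1, Smtn, Lmod1, Des, Synm, Sncg and Pcp4l1, described above, held no box in this strict form. Of all windows 60.4% sit at the outermost start of their gene and the others at further start sites. The 4 boxes that lie upstream of the whole annotated gene are shown so that the shared letters can be seen, flanked by 10 bases on either side, with the box in capitals and each sequence on the strand of its gene.
Actg1, chr11:120348566-120348595 (minus): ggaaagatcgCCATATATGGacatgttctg
Cnn2, chr10:79988534-79988563 (plus): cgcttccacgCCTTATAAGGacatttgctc
Myl9, chr2:156775293-156775322 (plus): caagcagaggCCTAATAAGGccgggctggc
Vcl, chr14:20929161-20929190 (plus): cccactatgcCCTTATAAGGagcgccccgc
Myl9, the smooth muscle myosin light chain, stood at 5280 and 6945 CPM at the 2 ages, and Actg1 and Cnn2 had ratios of 0.17 and 0.19. Vcl, vinculin, stood lower at P7, with a ratio of -0.21. The genes shown thus did not share a direction, and a match of letters is a description, not a bound site.

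**Figure D3:**
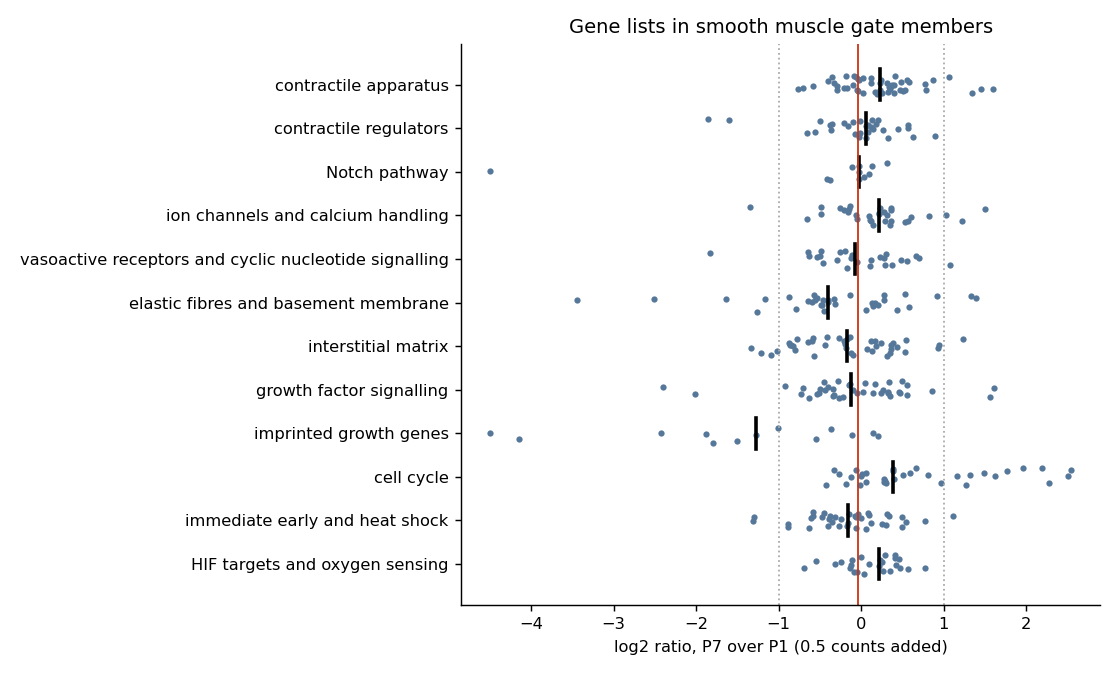
Log2 ratio of P7 over P1 in members for each measured gene of 12 lists (points; the genes of the rule are left out), with the list's median as a black bar, the median of all genes tested as a red line and the 2-fold limits dotted. Imprinted growth genes have the lowest median (-1.28) and cell cycle genes the highest (0.39), and the genes of the contractile list reach from -0.76 to 1.60.

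Regulators of the smooth muscle state differed little as a list. Of 31 measured, 0 were at least 2-fold higher and 2 at least 2-fold lower, with a median of 0.05. Myocd, the coactivator myocardin, stood at 70.3 CPM at P1 and 69.9 CPM at P7, a ratio of -0.01 (-0.33 to 0.32). Mef2c, Ebf1 and Tbx2, the most abundant of the list, had ratios of 0.18, 0.20 and 0.06. The 2 past the limit were transcription factors. Gata6, which is known to act in vascular smooth muscle, stood at 117 and 32.4 CPM, a ratio of -1.85 (-2.19 to -1.53). It was found in 48.9% and 22.6% of members, against 7.26% and 11.5% of Ptprc-positive cells. After thinning Gata6 was found in 12.7% and 6.18% of members and in 2.88% and 2.58% of Ptprc-positive cells. Its ratio without group 4 was -0.89, and it stood at 267 CPM in the P1 cells of that group. Meox1 stood at 44.5 and 14.6 CPM (-1.61) but came from only 12 P1 members.

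In the Notch pathway, through which endothelium instructs mural cells, 11 genes were measured, 4 of them above 0, with a median of -0.02, which was -0.22 without group 4. The receptor Notch3 stood at 401 CPM at P1 and 439 CPM at P7, a ratio of 0.13. The receptor Notch1 stood at 76.9 and 57.8 CPM (-0.41, -0.73 to -0.09), and Maml2, a coactivator of Notch targets, had a ratio of -0.38 (-0.92 to 0.19). The ligand Jag1 had a ratio of 0.31, and the targets Hes1 and Nrarp 0.10 and 0.04. The only gene of this list past 2-fold was Dlk1, an imprinted gene described below. These genes other than Dlk1 thus differed by less than 2-fold, and without group 4 the ratio of Notch3 was -0.07.

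Genes of calcium handling and ion channels had 3 of 32 members at least 2-fold higher at P7 and 1 lower, with a median of 0.21 that was -0.06 without group 4. Pln encodes phospholamban, the brake on calcium uptake by the sarcoplasmic reticulum. It stood at 189 CPM at P1 and 534 CPM at P7, a ratio of 1.5 (1.33 to 1.68), and was found in 43.5% and 65.6% of members. In all other cells the ratio of Pln was -1.09. Kcnmb1, the smooth muscle subunit of the large calcium-activated potassium channel, stood at 46.3 and 95 CPM (1.03), which was 0.87 without group 4 and so below 2-fold, and Ryr2, a calcium release channel, had 15 and 86 UMIs (1.22). Kcnk3, a background potassium channel, stood at 63.1 and 24.9 CPM (-1.34), with a ratio of -0.42 without group 4.

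Among 26 measured vasoactive receptors and genes of cyclic nucleotide signalling, 1 was at least 2-fold higher and 1 at least 2-fold lower, and the median was -0.08. Rgs4 and Rgs5 encode regulators that shorten the signal of G protein-coupled receptors. Rgs5 stood at 2338 CPM at P1 and 3435 CPM at P7, a ratio of 0.55 (0.50 to 0.61), which became 0.19 without group 4 and 0.88 without group 5. Inside groups 1, 2, 3, 4 and 6 Rgs5 was higher at P7 with ratios of 0.90, 0.53, 2.27, 1.91 and 0.78, and in group 5 lower with -0.68. Rgs4 stood at 131 and 276 CPM, a ratio of 1.07 (0.86 to 1.29), and 0.77 without group 4. Gucy1a1, a subunit of the nitric oxide receptor, stood at 849 and 925 CPM (0.12), and Ramp1, which makes the receptor for calcitonin gene-related peptide, at 475 and 460 CPM (-0.05). P2ry14, a purinergic receptor, was the gene at least 2-fold lower, at 46.9 and 13.1 CPM (-1.84, -2.38 to -1.32) in 29 and 36 members. The olfactory receptor Olfr78 stood at 87.1 and 139 CPM (0.67), and Olfr558, part of the rule, at 342 and 535 CPM.

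Matrix genes depended on which members were counted. The fibroblast markers given above moved beside them, and their part was not tested. Of 34 measured genes of elastic fibres and basement membrane 2 were at least 2-fold higher and 5 at least 2-fold lower at P7, with a median of -0.40 in members, 0.02 in the pericyte gate, 0.22 in the fibroblast gate and 0.29 in all other cells. Eln (chr5:134702593-134747323, minus strand), which encodes elastin, stood at 3643 CPM at P1 and 1618 CPM at P7, a ratio of -1.17 (-1.22 to -1.12). Fbln5, which helps to assemble elastic fibres, stood at 272 and 47.8 CPM (-2.51). Without group 4 the ratio of Eln was 0.61, that of Fbln5 0.13 and the median of the list 0.03. Inside the groups Eln was lower at P7 in group 1 (398 and 105 CPM), group 3 (4471 and 2378 CPM) and group 4 (9571 and 3920 CPM). It was higher at P7 in group 5 (190 and 1887 CPM). In group 2 (58.2 and 95.5 CPM) and group 6 (441 and 291 CPM) the intervals spanned 0. The ratio was 0.65 (-0.25 to 1.84) in group 2 and -0.60 (-1.675 to 0.48) in group 6. The pooled direction of Eln thus turned with a group of 37 P1 and 32 P7 cells. Fbln5, with 20 and 67 UMIs outside that group, was left without a direction (-0.58 to 0.95).

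Col4a1, Col4a2, Fbn2 and Npnt kept their direction without group 4. The basement membrane collagen Col4a1 stood at 1244 and 862 CPM, a ratio of -0.53, and of -0.76 without the group, while inside group 4 it stood at 937 and 1082 CPM (0.21, 0.04 to 0.38), and Col4a2 at 856 and 628 CPM (-0.45, and -0.60 without the group). Fbn2, a fibrillin of developing vessels, stood at 117 and 37.7 CPM, with ratios of -1.63 and -1.61 without the group. Npnt, the basement membrane protein nephronectin, went the other way with 20 and 128 UMIs (1.39, and 1.51 without the group). Group 3 held 10 and 86 of these UMIs, with a ratio of 0.01 (-0.87 to 1.18), and group 5 held 0 and 32, and over the alternatives the ratio of Npnt ran from 0.25 to 2.03. Ltbp2, with 88 P1 UMIs in 14 cells, had a ratio of -3.44. Outside group 4 it had only 2 P1 and 4 P7 UMIs (-0.74, -3.39 to 2.88). Mfap5, with UMIs in 17 and 66 members, had a ratio of 1.33. Once possible doublets were left out, Mfap5 had 31 and 45 UMIs and no direction (-0.63, -1.31 to 0.09). That setting leaves out members by their fibroblast or endothelial genes. Group 4 held 170 P1 and 984 P7 UMIs of Mfap5, with a ratio of 2.39 (2.15 to 2.63). Without the group its ratio was 2.47 (1.066 to 5.003), from 3 and 58 UMIs.

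In the interstitial matrix 41 genes were measured, 1 of them at least 2-fold higher and 4 at least 2-fold lower, with a median of -0.17, which was 0.21 without group 4 and 0.44 in all other cells. Sparcl1, a matricellular protein, stood at 2520 CPM at P1 and 4785 CPM at P7, a ratio of 0.93 (0.88 to 0.97), and its median over single members was 1918 and 4040 CPM. Cyr61, a matricellular target of mechanical signals, stood at 513 and 1208 CPM (1.23), and was higher at P7 in groups 1, 2 and 3 with ratios of 1.30, 3.00 and 0.78, in group 4 with 0.25 and in group 5 with 3.51, and lower in group 6 with -0.97 (-1.70 to -0.26). Fn1, fibronectin, stood at 514 and 253 CPM (-1.03), a ratio that was -1.44 without group 4 and 0.22 (0.003 to 0.44) inside it. Mgp, matrix Gla protein, which restrains calcification, stood at 1742 and 999 CPM (-0.80, and -0.30 without group 4), against 0.51 in the pericyte gate. Sparc, the most abundant of the list, had a ratio of 0.24, and Col5a1, Col6a3 and Vcan had ratios of -1.34, -1.22 and -1.09.

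**Figure D4:**
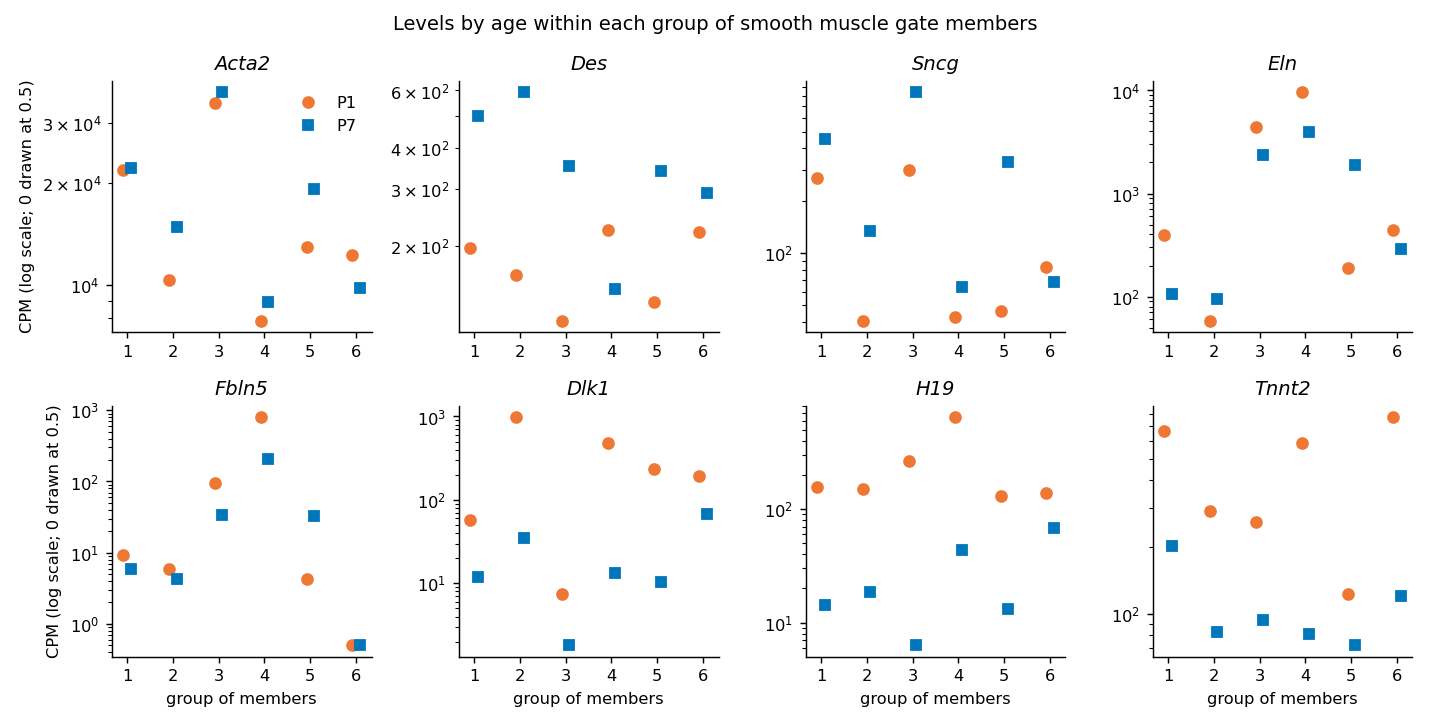
CPM (log scale, 0 drawn at 0.5) of 8 genes in P1 (circles) and P7 cells (squares) of each of the 6 groups of members. Eln and Fbln5 are highest in the P1 cells of group 4, Acta2 in group 1 is level at 21871 and 22074 CPM, and Dlk1, H19 and Tnnt2 are lower at P7 in every group. Dlk1 in group 3 (1 and 2 UMIs) and group 6 (7 and 4) and H19 in group 6 (5 and 4) have too few UMIs for a direction.

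Imprinted growth genes, which limit or promote growth before and after birth, had the lowest median of the 12 lists. Of 13 measured 0 were at least 2-fold higher and 8 at least 2-fold lower at P7, and the median was -1.28, against -0.63 in the pericyte gate, -0.41 in the fibroblast gate and -0.34 in all other cells. Without group 4 the median was -1.24. Inside the groups it was -0.87 in group 1, -1.11 in group 2, near 0 in group 3, -0.98 in group 4 and -0.74 in group 5, over 9, 8, 7, 12 and 8 genes with at least 50 UMIs there. H19 (chr7:142575529-142578143, minus strand), a maternally expressed long non-coding RNA, stood at 319 CPM at P1 and 17.9 CPM at P7, a ratio of -4.15 (-4.54 to -3.80). Group 4 held 348 of its 531 P1 UMIs, and without that group H19 had 183 and 45 UMIs, a ratio of -3.60 (-4.12 to -3.13). It was found in 68.7% of P1 and 14.3% of P7 members, and in 34.9% and 2.35% after thinning. The share of Ptprc-positive cells with H19 was 32.5% at P1 and 16.8% at P7 (12.1% and 7.24% after thinning), so the P7 share in members was no higher than this background. The ratio of H19 was -1.77 in the pericyte gate, -1.59 in the fibroblast gate and -1.87 in all other cells.

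Dlk1 (chr12:109452823-109463336, plus strand), a membrane protein related to the Notch ligands, stood at 314 CPM at P1 and 13.8 CPM at P7, a ratio of -4.49 (-4.93 to -4.10). It was patchy at P1, with UMIs in 38.9% of members and 984 CPM in group 2, against 57.1 CPM in group 1. Group 4 held 258 of the 522 P1 UMIs of Dlk1 in 9 cells, at 478 CPM, and without that group the ratio was -4.07 (-4.56 to -3.63). The pericyte gate held 1018 CPM at P1 and 54.4 CPM at P7 (-4.22). Meg3, a long non-coding RNA of the same locus, stood at 1230 and 434 CPM (-1.50), and its ratio in groups 1, 2 and 3 was -1.59, -1.49 and -2.00. Cdkn1c, a cyclin-dependent kinase inhibitor, stood at 358 and 147 CPM (-1.28), Plagl1, a zinc finger regulator of imprinted genes, at 93.1 and 17.3 CPM (-2.42), and Peg3 at 103 and 27.9 CPM (-1.89). Group 4 held 143 of the 172 P1 UMIs of Peg3, whose ratio without that group was -0.73 (-1.40 to -0.01). Gnas, the most abundant, had a ratio of -0.37. Dlk1, H19, Meg3, Cdkn1c, Plagl1 and Peg3 had a negative ratio under each of the 25 alternatives tried.

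In growth factor signalling 2 of 40 measured genes were at least 2-fold higher and 2 at least 2-fold lower. Fgf1, a fibroblast growth factor, had 30 and 221 UMIs, a ratio of 1.60 (1.07 to 2.23), and was found in 17.6% and 39.8% of members. Ackr3, a scavenging receptor for Cxcl12, stood at 53.5 and 158 CPM (1.55), and its ratio in the fibroblast gate was 2.63. Igfbp5, which binds insulin-like growth factors, stood at 495 and 897 CPM (0.86), whereas its ratio was -0.21 in the pericyte gate, -1.02 in the fibroblast gate and -1.16 in all other cells. Ptn, pleiotrophin, stood at 445 and 110 CPM (-2.01), and Igf1 at 54.7 and 10.3 CPM (-2.40). Without group 4 the ratio of Ptn was -0.15 and Igf1 had 1 and 14 UMIs, too few to give it a direction (1.68, -0.50 to 7.62).

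Cell cycle genes differed through few cells. Of 34 measured cell cycle genes 11 were at least 2-fold higher and 0 at least 2-fold lower, and the median was 0.39, against 0.35 in the pericyte gate, -0.26 in the fibroblast gate and -0.02 in all other cells. Without group 5, which these genes formed, the median was -0.45. Ube2c, a ubiquitin-conjugating enzyme of mitotic exit, stood at 16.8 CPM at P1 and 97.1 CPM at P7, a ratio of 2.50 (1.97 to 3.14), but was found in 9 of 131 and 30 of 349 members, 6.87% and 8.6%. Ccna2, cyclin A2, had 11 and 160 UMIs (2.55) in 6 and 24 members, and Ccnb1, cyclin B1, 8 and 98 UMIs in 4 and 13. Group 5 held 19 of the 28 P1 and 374 of the 386 P7 UMIs of Ube2c, and 7 and 156 of those of Ccna2. Outside it Ube2c had 9 and 12 UMIs and Ccna2 4 and 4, too few for a direction. H2afz, Hmgb2 and Tubb5, the most abundant of the list, had ratios of 0.28, 0.38 and 0.06.

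Of 38 immediate early and heat shock genes, which dissociation can induce, 1 was at least 2-fold higher and 2 at least 2-fold lower. Fosb and Nr4a2 had ratios of -1.31 and -1.30, and Dusp1, a phosphatase, stood at 471 and 1017 CPM (1.11). Fos, Junb and Jund, the most abundant, had ratios of -0.24, -0.32 and -0.16. The median of the list was -0.15 in members, -0.41 in the pericyte gate and -0.26 in all other cells. In members it was -0.02 without group 4, and inside groups 1 to 5 it ran from -0.48 in group 2 to 0.42 in group 5. The digestion lasted longer at P7.

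The study turned on hypoxia-inducible factor (HIF) signalling, and genes that HIF drives or that sense oxygen were measured in members too. Of 25 genes 0 were past 2-fold in either direction, with a median of 0.22, which was -0.01 without group 4. Ndufa4l2, a HIF target that tempers the respiratory chain, stood at 1232 CPM at P1 and 1231 CPM at P7, a ratio of 0.00 (-0.08 to 0.07), and of -0.30 without group 4. Epas1, which encodes HIF-2α, stood at 117 and 173 CPM (0.57), and Cox4i2, an oxygen-responsive subunit of cytochrome c oxidase found in mural cells, at 355 and 492 CPM (0.47). The glycolytic genes Gapdh, Aldoa and Pfkl had ratios of 0.41, 0.42 and 0.77, while Pfkp and Plod2 stood lower, at -0.55 and -0.69.

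Outside the lists, and with Gm-numbered and sex-linked genes left out, the largest ratio towards P7 with UMIs at both ages was that of Cpxm2, a carboxypeptidase-like protein, with 6 and 152 UMIs (3.30, 2.25 to 4.88) in 4.58% and 21.8% of members. Group 3 held 109 of its P7 UMIs. Itih4, an inter-alpha-trypsin inhibitor heavy chain, had 15 and 354 UMIs (3.26, 2.56 to 4.16) in 7.63% and 28.1% of members, and 256 of the P7 UMIs lay in group 3. In all other cells Itih4 stood at 2.09 and 0.90 CPM, and no pericyte gate cell at P7 had it. Efhd1, a mitochondrial calcium-binding protein, had 18 and 243 UMIs (2.46), 159 of the latter in group 3, and a ratio of 0.27 (-0.81 to 1.5) in group 1. There followed Pianp with 37 and 379 UMIs (2.08) and Tubb4a, a beta-tubulin, with 14 and 139 (2.01). For Efhd1 and Pianp the ratio in all other cells was 3.88 and 2.14. Lrrc10b came next (1.89). For Pi16, absent at P1, the P7 level was at least 17.3-fold higher than the limit of 3 counts at P1.

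Towards P1 the largest ratios outside the lists were those of Timp4 (-6.69) and Tgfbi (-6.22). Timp4, an inhibitor of metalloproteinases, had 194 UMIs in 13 P1 members and 4 at P7, and Tgfbi, a matrix protein, had 547 UMIs in 16 P1 members and 17 at P7. Nearly all lay in group 4, which held 191 and 545 of the P1 UMIs, so these ratios describe few cells. Outside it Timp4 had 3 and 4 UMIs and Tgfbi 2 and 1, too few for a direction. Sfrp2, S100a4 and Nupr1 followed (-2.89, -2.32 and -2.30), in 23, 29 and 37 P1 members. Without group 4 the ratio of S100a4 was -0.97 and that of Nupr1 was -1.47, while Sfrp2 had 6 and 25 UMIs (0.38, -0.85 to 2.05).

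Tnnt2, the troponin T of heart muscle, was found in more members than these genes. It stood at 495 CPM at P1 and 109 CPM at P7, a ratio of -2.18 (-2.35 to -2.01), and was found in 75.6% and 45.8% of members. After thinning it was found in 45.2% and 15.6% of members, against 5.19% and 2.58% of Ptprc-positive cells and 7.56% and 3.25% of the pericyte gate. Tnnt2 stood at 669 and 203 CPM in group 1 and its ratio without group 4 was -1.97. Of the other cardiomyocyte markers Pln, which smooth muscle also uses, is described above. Tnni3, Myh6 and Ttn had 29, 11 and 1 UMIs at P1 and 36, 17 and 4 at P7, and Actc1 stood at 51.1 and 14.6 CPM, while all other cells held Tnnt2 at 226 and 63.0 CPM with a ratio of -1.84. The level of Tnnt2 in P1 members was above that of all other cells together, and it was spread over most members rather than a few.

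**Figure D5:**
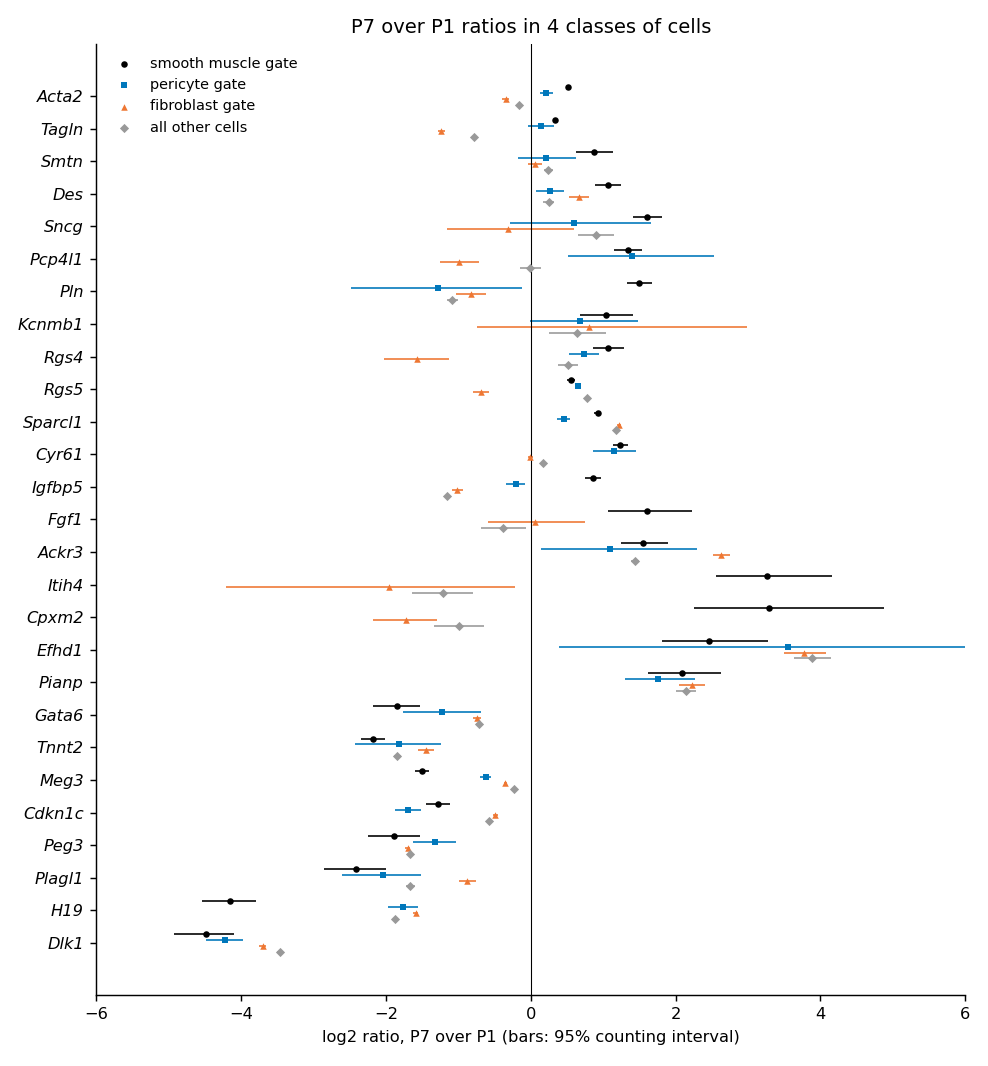
Log2 ratio of P7 over P1 for named genes in the smooth muscle gate (black), the pericyte gate (blue), the fibroblast gate (orange) and all other cells (grey), with bars for 95% counting intervals, cut off at the edges of the axis. A class with no more than 3 UMIs of a gene at either age has no point. Pln and Igfbp5 lie above 0 in the smooth muscle gate and below 0 in the other classes, while H19, Dlk1 and Tnnt2 lie below 0 in all.

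The 4 classes come from the same 2 libraries, and differences between their ratios were not tested. Side by side, Acta2 had ratios of 0.51 in the smooth muscle gate, 0.21 in the pericyte gate, -0.35 in the fibroblast gate and -0.16 in all other cells, where it stood at 428 and 382 CPM. Pln had ratios of 1.5, -1.29, -0.83 and -1.09, and Sncg 1.60, 0.60, -0.31 and 0.90. Pianp had ratios of 2.08, 1.76, 2.22 and 2.14, values near each other, and Peg3 of -1.89, -1.33, -1.70 and -1.67, the first resting largely on group 4.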

How the data were processed

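Single-cell 3′ RNA-seq libraries of P1 and P7 mouse hearts were used, 1 per age. The authors aligned reads to mm10/GRCm38 with Cell Ranger 3.1.0, per the submitters' processing notes, and deposited whole-number UMI counts per gene and barcode without normalisation. The P1 file held 63585504 UMIs in 7836 barcodes and the P7 file 98346195 in 9077. Barcodes with 200 to 8000 genes and at most 20% mitochondrial UMIs were kept. Doublets were treated only by the gene limit and, as an alternative, by leaving out members with at least 3 of the fibroblast genes below or 2 of Cdh5, Kdr, Tie1, Tek and Egfl7. UMIs were summed over members per library and given as CPM. Intervals were exact at 95% (Poisson, Clopper-Pearson, or binomial for a ratio) and cover counting error only. The limit for a count of 0 was 3 counts per library. Because each age had 1 library, no test was made and a difference was called past 2-fold. The ratio code was tested on simulated data. Fibroblast gate cells had 3 or more of Pdgfra, Dcn, Lum, Tcf21 and Dpt and at most 1 gene of either other set.

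Members were grouped with 1000 variable genes, 15 principal components, 15 neighbours and Louvain clustering (resolution 0.5) in igraph 0.11.9; other steps used python 3.11.15 with pandas 2.3.3, numpy 2.4.6, scipy 1.17.1 and, for plots, matplotlib 3.10.9. Genes named were those of the gate and markers, the 15 largest ratios in each direction (at least 100 UMIs over both ages, 50 in the higher), in each list the 5 largest and 3 most abundant, library checks and genes leading a group; Actg1, Cnn2, Myl9 and Vcl were named for their promoter windows, and Gm10320 after its values were seen. Members and gene lists were chosen with earlier results of these data known. Gene positions are from GENCODE M21, in which 30934 of 31053 gene IDs were found, and promoter windows from RefSeq. The study's limit on mitochondrial content is not given in the sources used here. Its Harmony integration, and MAST, which it applied to epicardial cells, were not run. The results of 1 marker list and of a gene are not reported here.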

Additional observations from a re-analysis of the deposited data

How the results depend on the processing

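With 1 library per age, all limits of counting and grouping apply to 2 pools of hearts, and intervals leave out the spread between hearts. No paired analysis was possible because each age had 1 library. The share of members was higher at P7 than at P1 under each alternative for the gate. At P1 it moved to 3.71% with at least 2 smooth muscle genes, 1.94% with at least 4, and 1.80%, 1.84% and 1.86% without Myh11, Mustn1 and Actg2 in the set. At P7 it moved to 4.83% with at least 2 genes, 3.43%, 3.47%, 3.62% and 3.62% without Myh11, Mustn1, Olfr558 and Nrip2, 4.75% when Pecam1 and Ptprc were not asked and 3.22% without possible doublets. Leaving members out lowers the share by construction, to 1.42% and 2.74% without those holding 2 lung and posterior genes. That setting kept 71 P1 and 233 P7 members. With Aspn, Lgr6 and Hoxb2 taken off the list, 110 and 345 were kept. The share fell to 1.66% and 3.50% without groups 4 and 6, to 1.88% at P1 without group 4 and to 3.60% at P7 without group 5. The number of genes at least 2-fold higher and lower at P7 became 125 and 153 with at least 2 smooth muscle genes, 327 and 479 with a minimum of 20 UMIs, 24 and 19 with 400, and 27 and 23 when members were thinned to 2000 UMIs, settings that also change how many genes were measured. Genes at least 2-fold lower numbered 63 and 57 without Mustn1 and Actg2, and 47 without members holding 2 lung and posterior genes. They numbered 68 with the shorter lung list, 58 without group 4 and 59 without groups 4 and 6, settings that were added after the data were seen. With the mean of per-cell CPM 86 genes were higher and 148 lower, against 83 and 99. The median of the contractile list stayed between 0.16 and 0.27 and that of the imprinted list between -1.46 and -0.62, whereas the elastic fibre list ran from -0.56 to 0.15 and the interstitial list from -0.72 to 0.24.

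Some ratios changed sign. Of the values given for this, only those of Eln, and that of Igf1 without groups 4 and 6, had an interval that excluded 0. Eln went from -1.17 to 0.42 with at least 4 genes, 0.31 and 0.47 without Myh11 and Actg2, 0.61 without group 4 and 0.60 without groups 4 and 6, and Fbln5 from -2.51 to 0.21, 0.064, 0.13, 0.13 and 0.11 under these. The intervals of Fbln5 all spanned 0 there, as from -0.58 to 0.95 without group 4, so it kept no direction. Igf1 became 0.18 with at least 4 genes, 0.21 without Actg2, 1.68 without group 4, from 1 and 14 UMIs. Without groups 4 and 6 it had 0 P1 and 14 P7 UMIs, a level at least 1.53-fold higher at P7 against the limit of 3 counts; the value of 3.25 there comes from the added 0.5 counts. Sfrp2 became 0.38 without group 4, from 6 and 25 UMIs, and 0.60 without both groups, from 5 and 25. Prdm6, a gene leading group 4, and Tgfbi have no ratio without it, since neither age kept more than 3 UMIs. Mfap5 became -0.63 (-1.31 to 0.09) without possible doublets, from 31 and 45 UMIs, and so had no direction. Ube2c and Ccna2 became -0.81 (-2.16 to 0.63) and -1.21 (-3.63 to 1.22) without group 5, which their own levels formed, from 9 and 12 and from 4 and 4 UMIs, too few for a direction. The other causes were not tested. Centring on the median gene or trimmed mean scaling shifted all ratios by no more than 0.04.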
